A study of Mus musculus with 15 samples.

Results

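The genes described here are 9 members of the core apoptosis machinery, Bax, Bak1, Bcl2, Bcl2l1, Bcl2l11, Mcl1, Casp8, Casp9 and Fadd, in femoral RNA of mice that did or did not fly in space and did or did not undergo bone surgery. They were chosen by name, and every non-control probe whose RefSeq accession maps to one of these symbols was taken. This gave 12 of the 55681 probes on the array and 9 of the 21154 genes that could be named. Bcl2l1, Bcl2l11 and Mcl1 have 2 probes each and the other genes 1, each probe with 1 spot. All 15 mice were male C57BL/6J, 9 weeks old by the labels. By the study's account that is about the age at surgery, and the tissue was taken roughly a month later, at euthanasia. The groups were 4 G-Sham mice kept on the ground without an operation, 4 FLT-Sham mice flown to the International Space Station without an operation, 4 G-Surgery mice kept on the ground after segmental bone defect (SBD) surgery, and 3 FLT-Surgery mice flown after the same surgery. Surgery took out a piece of the femoral shaft and put a pinned scaffold, wrapped in a saline-soaked collagen sponge, in its place. Each array held RNA from 1 mouse, from the midshaft that contained the callus or from the matching midshaft of a Sham femur, dissected from thawed whole carcasses. RNA integrity was low in all cohorts by the study's account. Flight mice spent about a month in orbit, and the ground mice lived in the same hardware.

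Apoptosis runs along a mitochondrial and a death receptor route, which are connected. In the mitochondrial route, BH3-only proteins such as BIM, the product of Bcl2l11, release BAX and BAK from their guardians BCL2, BCL-XL (Bcl2l1) and MCL1. BAX and BAK then open the outer mitochondrial membrane, and cytochrome c that leaks out drives assembly of the apoptosome, which activates caspase-9. In the death receptor route, the adaptor FADD joins an occupied receptor of the Fas or TNF family to caspase-8. In bone both routes act in osteoblasts, osteocytes and osteoclasts, and MCL1 is also a short-lived survival factor of myeloid and plasma cells.

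The sample carried Cy5 and a commercial mouse reference RNA carried Cy3 on every array, with no dye swap. Values are log2 ratios of Cy5 to Cy3 from the deposited, dye-normalized signals, so that 1 unit is a doubling, and they compare groups for 1 probe and not probes with each other. Between 12493 and 21461 probes per array had a Cy5 signal well above background by the flag of the scanning software. The count was 12493 to 14260.0 in FLT-Surgery, 12869 to 18300.0 in G-Sham, 14309 to 20697 in G-Surgery and 14813 to 21461 in FLT-Sham, so the groups' ranges overlapped except for FLT-Surgery, which lay below G-Surgery and FLT-Sham. The tissue label was checked with 9 osteoblast and osteocyte markers, of which 2 (Bglap2 and Col1a1) were above background on all 15 arrays, Ibsp on 14 and 4 on none. Of 8 skeletal muscle markers 6 were above background on all 15 and 0 on none. Differences between groups were tested with limma on the arrays of the groups compared, over all probes above background on at least 3 of them. The cut-off, after the study's methods, asked for a doubling or halving and for an unadjusted p no higher than 0.01, and Benjamini-Hochberg adjusted p-values over all probes tested stand beside it. Replicate values are listed in the order 1, 3, 4 and 5 for G-Sham and G-Surgery, 4, 6, 8 and 9 for FLT-Sham, and 1, 3 and 5 for FLT-Surgery.

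Mcl1 (chromosome 3, 95656944 to 95663179 in GRCm38.p6) and Fadd (chromosome 7, 144578323 to 144582441) are the members whose G-Surgery arrays lay wholly above the G-Sham arrays, as given further on, and their proximal promoters are shown for that reason. Both are RefSeq sequences of GRCm38.p6, running 5' to 3' on the gene's own strand over 300 bases around an annotated transcript start, at chr3:95658471-95658770 on the plus strand and chr7:144582392-144582691 on the minus strand. Capitals mark the GC box. The other members lie, in the same build, on chromosome 7 from 45461695 to 45466903 (Bax), chromosome 17 from 27019812 to 27028627 (Bak1), chromosome 1 from 106538176 to 106714290 (Bcl2) and chromosome 2 from 152758732 to 152833803 (Bcl2l1). Bcl2l11 lies on chromosome 2 from 128126038 to 128162547, Casp8 on chromosome 1 from 58795233 to 58847503, and Casp9 on chromosome 4 from 141793612 to 141815978.
Mcl1: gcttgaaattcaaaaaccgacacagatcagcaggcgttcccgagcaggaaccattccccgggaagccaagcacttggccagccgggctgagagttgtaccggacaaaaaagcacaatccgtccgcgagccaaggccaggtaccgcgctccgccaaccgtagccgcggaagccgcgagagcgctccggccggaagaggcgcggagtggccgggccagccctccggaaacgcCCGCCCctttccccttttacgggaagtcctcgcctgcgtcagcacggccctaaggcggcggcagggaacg
Fadd: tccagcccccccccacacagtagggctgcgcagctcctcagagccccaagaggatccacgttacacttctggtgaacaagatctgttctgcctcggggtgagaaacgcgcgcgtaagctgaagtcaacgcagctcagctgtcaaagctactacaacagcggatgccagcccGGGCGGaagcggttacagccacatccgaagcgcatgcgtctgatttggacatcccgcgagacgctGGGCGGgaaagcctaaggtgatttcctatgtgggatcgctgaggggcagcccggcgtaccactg
The GC box was searched as GGGCGG on both strands and occurs 1 time in the Mcl1 window and 2 times in the Fadd window. It was present in 7 of the 12 promoter windows annotated for the 9 genes and in 35.7% of all 32851 windows. CCAAT was present in 3 of the 12 windows against 37.4% of all, and TATAAA in 0 of the 12 against 13.6% of all. TTCCNGGAA, a binding motif of STAT factors, and the NF-kB consensus site matched none of the 12 and 1.15% and 0.155% of all windows. Overlapping matches were counted separately, and a match is a description of letters only.

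Detection split the 9 genes into a bright and a dim set. A probe each of Bax, Bak1, Bcl2l1 and Mcl1 was well above background on all 15 arrays. Bcl2 and Casp9 reached this level on 6 arrays each, the second Mcl1 probe on 5, and Casp8 and Fadd on 2 each. The Bcl2l11 probes and the second Bcl2l1 probe did so on no array. FLT-Sham held 3 of the 6 arrays for Bcl2, 3 of the 6 for Casp9 and both for Casp8, and no FLT-Surgery array was above background for Casp9, Casp8 or Fadd. FLT-Sham also held the array with the most probes of any kind above background.

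**Figure D1:**
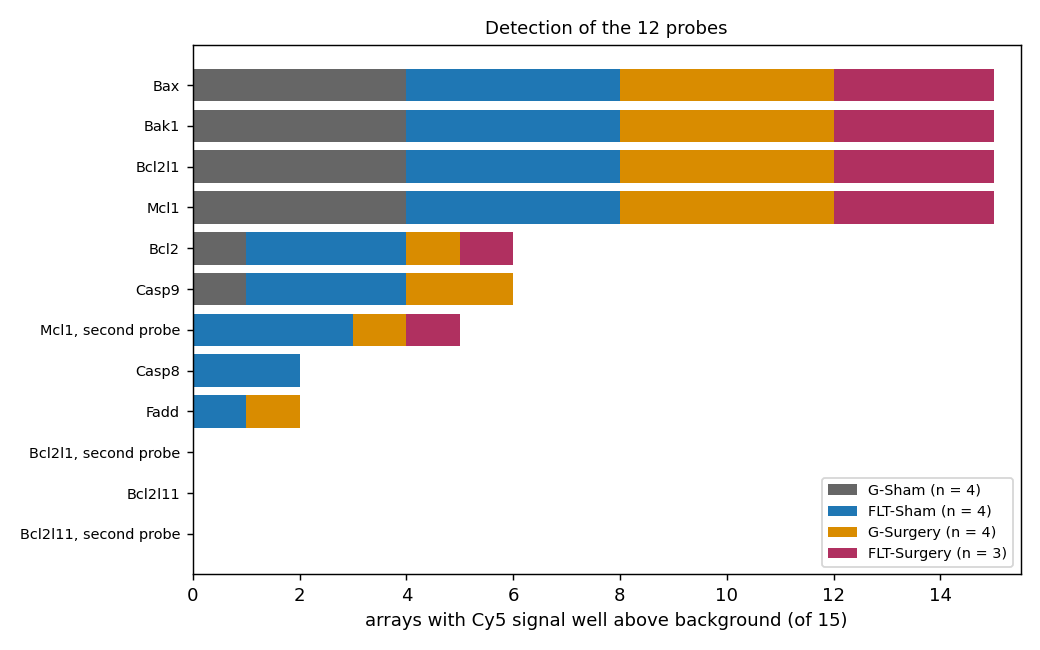
Number of arrays (x axis, of 15) on which the Cy5 signal of each of the 12 probes (y axis) was well above background, with colours for the 4 groups. Probes for Bax, Bak1, Bcl2l1 and Mcl1 reach 15 arrays, 5 probes lie between 2 and 6, and 3 have none.

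No member gene passed the cut-off in any comparison. In FLT-Sham against G-Sham 6 genes could be tested and 0 passed, against 2% of all 19739 probes. In FLT-Surgery against G-Surgery 4 genes could be tested and 0 passed, against 3.14% of 16548 probes. For G-Surgery against G-Sham the counts were 5 tested and 0 passed, against 2.59% of 17675 probes, and for FLT-Surgery against FLT-Sham 6 tested and 0 passed, against 6.65% of 19136 probes. The interaction, which asks whether the effect of spaceflight differed between operated and Sham femora, was tested for 6 genes and 0 passed, against 5.33% of 21777 probes. With limma at an unadjusted p of at most 0.05 and no limit on the fold, 1 member gene, Mcl1, passed in G-Surgery against G-Sham (all probes 10.9%) and in the interaction (all probes 19.5%), and 0 in FLT-Sham against G-Sham (all probes 9.57%), FLT-Surgery against G-Surgery (16.4%) and FLT-Surgery against FLT-Sham (24.3%). At an adjusted p of at most 0.05, 0 members passed anywhere, beside 0% of all probes in the first pair of comparisons above, 0.0113% in G-Surgery against G-Sham, 0.0836% in FLT-Surgery against FLT-Sham and 0% in the interaction. The median difference of all probes tested was 0.24, -0.20, 0.14, -0.28 and -0.37 in the same order, and a second loess of the ratios turned its sign in all 5.

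Mcl1, the guardian that binds BAK and BIM, gave the clearest difference of the set. In G-Sham its log2 ratios were -1.33, -1.09, -1.31 and -0.92, and in G-Surgery -0.18, -0.16, -0.34 and -0.87. FLT-Sham arrays gave -0.81, -0.23, -1.02 and -0.59 and FLT-Surgery arrays -0.42, -1.14 and -0.94. All 4 G-Surgery arrays were above all 4 G-Sham arrays, with replicate 5 of G-Surgery just clear of the highest G-Sham array, while both flight groups overlapped every other group. The difference of G-Surgery from G-Sham was 0.78 on the log2 scale (SE 0.26, 95% interval 0.19 to 1.36, limma adjusted p = 0.362), a 1.71-fold higher ratio. The exact two-sided permutation test gave p = 0.0286, the smallest that 4 against 4 arrays can give. Groups did not overlap, in this direction, for 5.31% of all probes tested. Leaving out 1 array at a time gave 0.70 to 0.94, and within slides the difference was 0.63 on the first (3 G-Surgery arrays, 1 G-Sham array) and 0.97 on the second (1 and 2). With slide as a block it was 0.79 and its unadjusted limma p was above 0.05, as it was in the sample channel alone. The sign was the same in the sample channel alone, where the difference was 0.70, and the Cy5 signals ran from 4779 to 5319 in G-Sham and from 6288 to 12590.2 in G-Surgery.

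The summed Cy5 signal of 6 macrophage markers, in multiples of each array's 75th percentile, moved with Mcl1. It was 24.8 to 41.6 in G-Sham and 47.1 to 62.4 in G-Surgery, and 2 of the 6 markers were above background on all 15 arrays and 0 of them on none. The sum of 5 chondrocyte markers also separated these groups, at 1.73 to 4.30 in G-Sham and 4.76 to 73.4 in G-Surgery, with 0 of the 5 above background on all arrays and 1 on none. Among single markers, Col2a1, the main cartilage collagen, was higher past the cut-off by 6.03 and Ibsp, bone sialoprotein, by 3.1. Of the other osteoblast markers tested, Col1a1 was at 0.84, Bglap at -0.44, Bglap2 at -1.40 and Alpl at -0.64, short of the cut-off. The sums of the other 9 marker lists overlapped, such as that of 8 neutrophil markers at 279.6 to 653 in G-Sham and 132 to 399 in G-Surgery. In FLT-Surgery the macrophage sum was 44.1 to 65.6, like G-Surgery, although 2 of its 3 Mcl1 values were within the G-Sham range. The part of these cells in the Mcl1 difference was not tested, and in whole tissue fewer cells of a type and less RNA per cell cannot be told apart.

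The Mcl1 differences with spaceflight were within the spread between mice and opposite in sign in Sham and operated femora. FLT-Sham was 0.50 above G-Sham (SE 0.30, 95% interval -0.19 to 1.19, limma adjusted p = 0.532, exact permutation p = 0.0571), and 3 of its 4 arrays exceeded every G-Sham array. FLT-Surgery fell by 0.45 from G-Surgery on the fitted scale (95% interval -1.17 to 0.28, limma adjusted p = 0.468), and within slides by 0.58 on the first and 0.26 on the second. Under other settings the FLT-Sham difference from G-Sham ran from 0.23 to 1.12, and the FLT-Surgery difference from G-Surgery from -0.65 to -0.16. FLT-Surgery and FLT-Sham differed by -0.17 (SE 0.37, limma adjusted p = 0.771), with opposite signs on the first slide (-0.23) and the second (0.20) and 0.15 after a second loess. The interaction was -0.95 (SE 0.42, 95% interval -1.84 to -0.05, limma adjusted p = 0.240). With 1 array left out it lay between -1.15 and -0.79, and the unadjusted p stayed at or below 0.05 only without G-Sham replicate 5, FLT-Sham replicates 4 or 8, G-Surgery replicate 5 or FLT-Surgery replicate 1. A second loess gave an interaction of -0.50. Because these comparisons share the G-Sham or the G-Surgery arrays, their values are not independent of each other.

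The second Mcl1 probe, which carries the same accession, was dim and did not follow the first throughout. Its ratios were -5.52, -3.76, -3.50 and -4.87 in G-Sham and -2.28, -1.43, -4.84 and -2.13 in FLT-Sham. G-Surgery gave -3.64, -1.86, -3.71 and -5.30 and FLT-Surgery -1.55, -4.72 and -5.86. It was below the limit for well above background on all 4 G-Sham arrays, and the highest value in each of the other groups came from an array on the second slide. The lowest values of G-Sham (-5.52 and -4.87) and of FLT-Sham (-4.84) were on that slide as well. FLT-Sham, above background on 3 of 4 arrays, was at least 2.33-fold over G-Sham (limma adjusted p = 0.514). G-Surgery was at least 1.47-fold over G-Sham but rested on 1 array above background, and was not tested.

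Bax and Bak1 encode the effectors that open the mitochondrial membrane. Bax ratios were -1.98, -1.44, -2.27 and -1.12 in G-Sham, -1.13, -1.41, -1.54 and -0.94 in FLT-Sham, -1.55, -1.75, -1.89 and -1.96 in G-Surgery, and -1.0, -1.03 and -2.08 in FLT-Surgery. The groups overlapped in each of the 4 comparisons. FLT-Surgery replicates 1 and 3 were above all G-Surgery arrays and replicate 5 was below them all. FLT-Sham was 0.45 above G-Sham (SE 0.35, 95% interval -0.36 to 1.25, limma adjusted p = 0.566) and FLT-Surgery 0.42 above G-Surgery (SE 0.34, 95% interval -0.37 to 1.21, limma adjusted p = 0.537). The former was 0.13 after a second loess and -0.10 with repeated background correction and loess, so its direction depended on the scaling. The latter was 0.77 without FLT-Surgery replicate 5 and 0.23 without FLT-Surgery replicate 1, its highest and lowest values under the other settings. G-Surgery and G-Sham differed by -0.09 (95% interval -0.78 to 0.61), FLT-Surgery and FLT-Sham by -0.11 (SE 0.41), which was 0.42 after a second loess, and the interaction was -0.03 (SE 0.49, limma adjusted p = 0.980). Within slides the differences with spaceflight were 0.31 and 0.25 in Sham femora and 0.25 and 0.75 in operated femora.

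Bak1 was brighter in the sample than in the reference on every array. Its ratios were 1.58, 1.77, 1.5 and 1.86 in G-Sham, 0.86, 0.69, 1.92 and 1.64 in FLT-Sham, 1.36, 1.63, 1.78 and 1.74 in G-Surgery, and 1.87, 1.66 and 1.42 in FLT-Surgery. FLT-Sham replicates 4 and 6 were below all other arrays, and FLT-Sham replicate 8 was the highest of all. FLT-Sham had the widest spread (SD 0.60, n = 4, against 0.17 to 0.22 in the other groups) and differed from G-Sham by -0.40 (SE 0.36, 95% interval -1.23 to 0.43, limma adjusted p = 0.592). The Cy5 signals of replicates 4 and 6 were 11560 and 11921, inside the G-Sham range of 11414 to 14293, while their Cy3 signals of 6355 and 7380.0 were above the G-Sham range of 3621 to 4788. FLT-Sham replicate 9 also had a Cy3 signal above that range, 6840.5, yet its ratio of 1.64 was inside the G-Sham range. G-Surgery and G-Sham differed by -0.05 (95% interval -0.57 to 0.46) and FLT-Surgery and G-Surgery by 0.02 (95% interval -0.57 to 0.62), so a difference of 1 log2 unit lay outside both intervals. FLT-Surgery exceeded FLT-Sham by 0.37 (SE 0.42, limma adjusted p = 0.563).

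**Figure D2:**
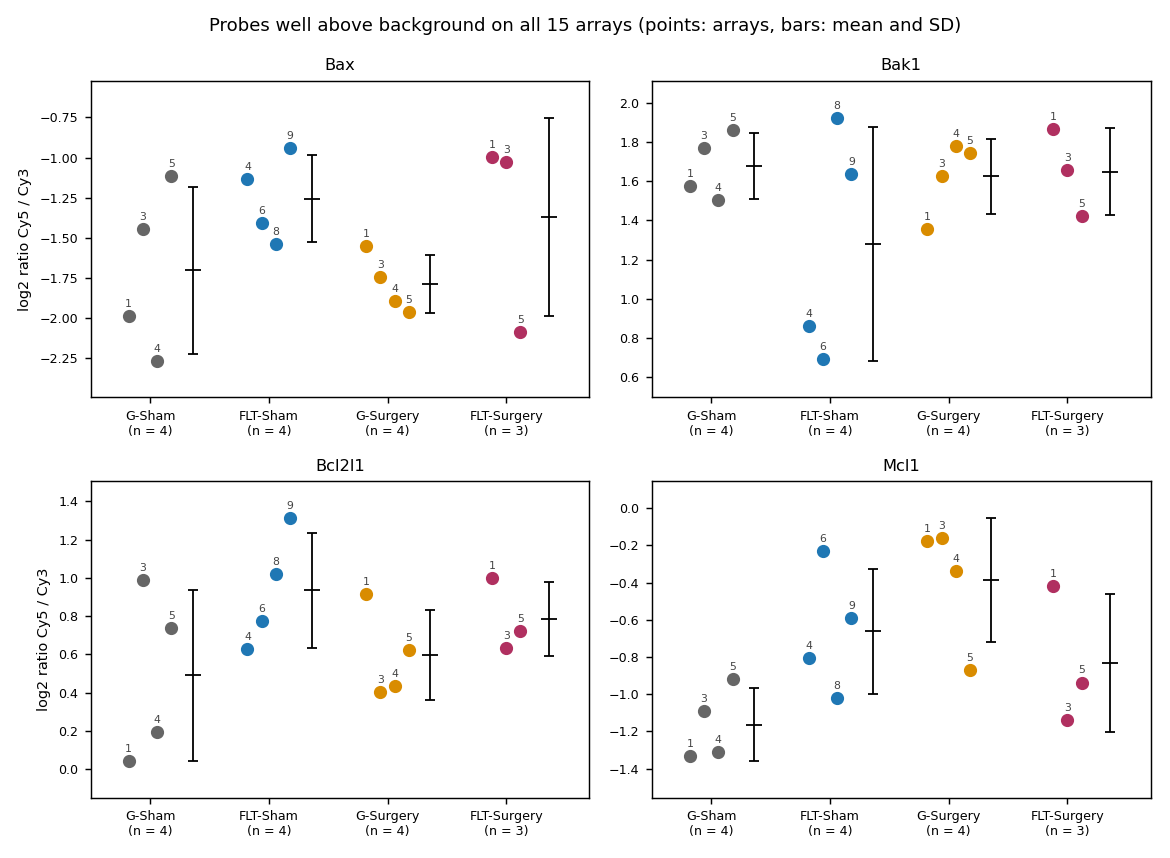
Log2 ratio of Cy5 to Cy3 (y axis) for the Bax, Bak1, Bcl2l1 and Mcl1 probes that were well above background on all 15 arrays, by group (x axis), with 1 point per array, its replicate number, and bars for mean and SD. Only in the Mcl1 panel do the G-Sham and G-Surgery points not overlap.

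Among the guardians, Bcl2l1 was detected everywhere and Bcl2 seldom. Bcl2l1, which encodes BCL-XL, gave 0.04, 0.99, 0.19 and 0.74 in G-Sham and 0.63, 0.78, 1.02 and 1.31 in FLT-Sham. G-Surgery gave 0.92, 0.40, 0.44 and 0.62 and FLT-Surgery 1.0, 0.63 and 0.72. All groups overlapped, with the lowest 2 arrays both G-Sham and the highest FLT-Sham. The largest group difference, FLT-Sham over G-Sham, was 0.44 (SE 0.34, 95% interval -0.33 to 1.22, limma adjusted p = 0.561), and the other 3 differences between groups lay between -0.15 and 0.19. FLT-Sham over G-Sham was 0.24 after a second loess, 0.20 with repeated background correction and loess, and 0.61 without G-Sham replicate 3. Within slides, FLT-Sham against G-Sham was -0.36 on the first, with 1 array a group, and 0.65 on the second. The second Bcl2l1 probe, which carries another transcript's accession, was not well above background on any array, with Cy5 signals between 19.9 and 95.8.

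Bcl2 ratios were -3.13, -0.96, -1.09 and -2.41 in G-Sham, -0.44, -0.98, -1.42 and -1.05 in FLT-Sham, -0.75, -1.27, -1.17 and -1.30 in G-Surgery, and -2.78, 0.04 and -0.77 in FLT-Surgery. The FLT-Surgery arrays spanned nearly the whole range of the gene. FLT-Sham was 0.92 above G-Sham (SE 0.53, 95% interval -0.29 to 2.14, limma adjusted p = 0.527). This was 0.15 after a second loess, -0.03 with repeated background correction and loess, and 0.51 without G-Sham replicate 1. In the other direction, it was 1.29 with slide as a block and 1.23 without G-Sham replicate 3. FLT-Surgery differed from FLT-Sham by -0.20 (95% interval -1.75 to 1.36), or by 1.04 after a second loess. It was 0.61 without FLT-Surgery replicate 1 and -0.80 without replicate 3, so single arrays set its sign. The comparisons with G-Surgery had too few arrays above background to be tested.

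**Figure D3:**
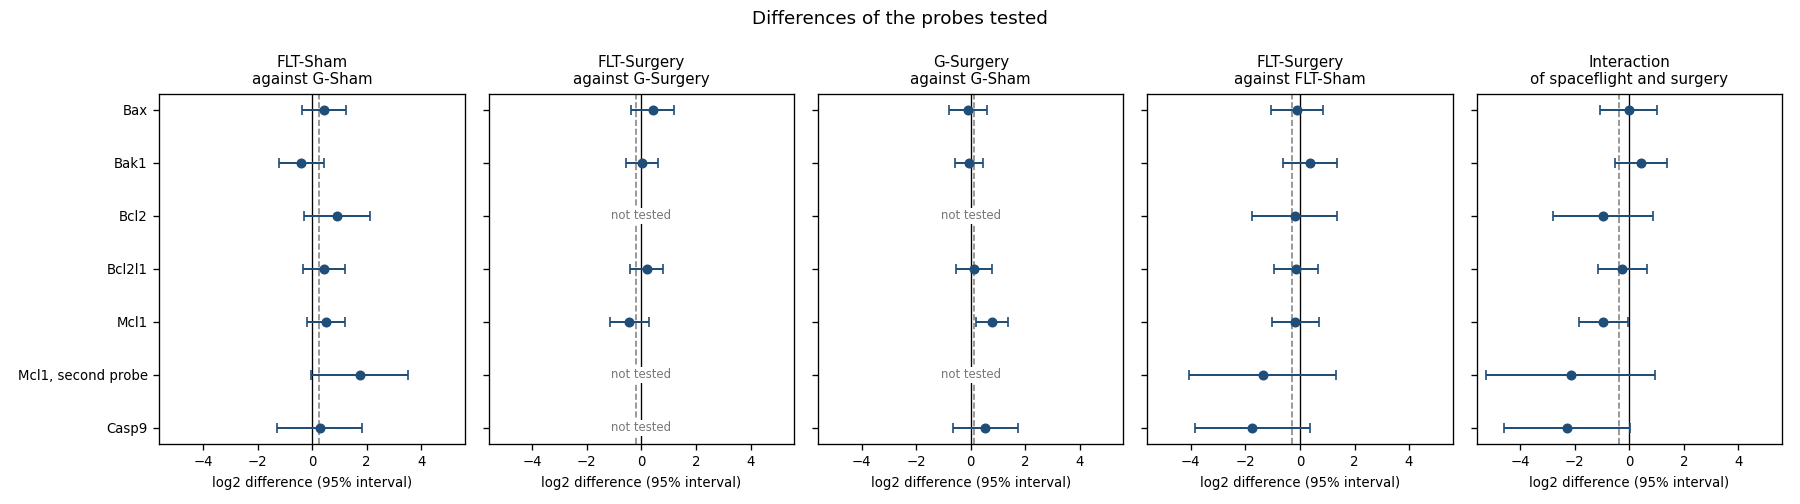
Log2 difference with its 95% interval (x axis) from limma for each member probe tested (y axis), in the 4 comparisons of groups and the interaction. The dashed line is the median of all probes tested. Only the Mcl1 intervals for G-Surgery against G-Sham and for the interaction exclude 0, before any adjustment for the number of probes.

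As a description of the balance within each array, the mean ratio of Bcl2l1 and Mcl1 was subtracted from the mean ratio of Bax and Bak1, all 4 detected throughout. The result was 0.33 ± 0.15 (SD, n = 4) in G-Sham, -0.12 ± 0.35 (SD, n = 4) in FLT-Sham, -0.19 ± 0.20 (SD, n = 4) in G-Surgery and 0.16 ± 0.40 (SD, n = 3) in FLT-Surgery. G-Sham arrays (0.18 to 0.46) lay above G-Surgery arrays (-0.47 to 0.02), with Mcl1 the term that differed most, and no test was run on this score.

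Casp9, the initiator caspase of the apoptosome, was lowest in 2 of the 3 FLT-Surgery mice. Its ratios were -1.51, -2.17, -3.66 and -2.77 in G-Sham, -1.16, -1.39, -3.80 and -2.64 in FLT-Sham, -2.28, -0.99, -2.57 and -2.14 in G-Surgery, and -2.13, -4.87 and -4.97 in FLT-Surgery. No FLT-Surgery array was well above background, FLT-Surgery replicate 1 overlapped every other group, and on replicate 3 the signal was not significantly over background at all. FLT-Sham was at least 2.10-fold over FLT-Surgery, and the probe passed the filter only through 3 FLT-Sham arrays. The fitted difference of FLT-Surgery from FLT-Sham, -1.74 (SE 0.91, limma adjusted p = 0.258), therefore rests on FLT-Surgery signals not well above background. It was 0.32 when background correction and loess were repeated from the raw signals and -0.67 after a second loess, so its direction depended on the scaling. Without FLT-Surgery replicate 1 it was -2.67, and its sign differed between the slides. G-Surgery was at least 2.82-fold over FLT-Surgery with 2 of 4 arrays above background, which was not tested. FLT-Sham differed from G-Sham by 0.28 (SE 0.69, limma adjusted p = 0.836), or by -0.07 after a second loess, and G-Surgery from G-Sham by 0.54 (SE 0.52, limma adjusted p = 0.706). The interaction was -2.28 (SE 1.08, 95% interval -4.59 to 0.03, limma adjusted p = 0.261), and it became 0.21 under the same repeated correction. Without FLT-Surgery replicate 1, the interaction was -3.21 and passed the cut-off. FLT-Surgery replicate 1 was hybridised on the second slide and replicates 3 and 5 on the first, and FLT-Surgery replicate 3 had the fewest probes above background of all 15 arrays. Several marker sums also did not overlap between FLT-Sham and FLT-Surgery. They were 146 to 488 and 10.3 to 95.4 for erythroid cells, 473 to 808 and 51.5 to 371 for neutrophils, 27.9 to 103.6 and 0.447 to 24.2 for adipocytes, 3.73 to 8.30 and 3.19 to 3.39 for B cells, and 25.3 to 47.4 and 57.6 to 184 for endothelial cells. Acta1 of muscle, Alas2 and Slc4a1 of erythroid cells, Camp and Mpo of neutrophils, Bglap2 and Alpl of osteoblasts and Cfd of adipocytes were among the markers lower past the cut-off in FLT-Surgery. Of the same lists, Myh4 (0.74), Elane (0.82), Col1a1 (0.18) and Ibsp (0.04) went the other way, short of the cut-off. The sums overlapped for muscle (2641 to 15715 in FLT-Sham, 487 to 5402 in FLT-Surgery) and for osteoblasts and osteocytes (133 to 335 and 231 to 343). The part of these cells in the Casp9 values was not tested.

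Fadd and Casp8 carry the death receptor signal, and both were mostly too dim to test. For Fadd the ratios were -3.55, -3.88, -2.12 and -3.47 in G-Sham, -2.60, -1.01, -4.18 and -1.69 in FLT-Sham, -1.15, -1.63, -1.92 and -1.83 in G-Surgery, and -4.15, -3.83 and -2.57 in FLT-Surgery. The 4 G-Surgery arrays lay above all G-Sham and all FLT-Surgery arrays, and FLT-Sham overlapped all 3 groups. Only G-Surgery replicate 1 and FLT-Sham replicate 6 were well above background. Against a floor at the dimmest probes above background, G-Surgery was at least 1.70-fold over G-Sham and at least 1.78-fold over FLT-Surgery. With no filter on dim probes the Fadd difference was 1.62 for G-Surgery against G-Sham (SE 0.40, limma adjusted p = 0.562) and -1.88 for FLT-Surgery against G-Surgery (SE 0.43, limma adjusted p = 0.396). These pass the cut-off, as do 0.824% of all 55681 probes in the first direction and 0.819% in the second, while the groups do not overlap for 2.23% and 3.53% of them. The Fadd signal was not significantly over background on 2 of the 3 FLT-Surgery arrays and 1 G-Sham array, so those ratios rest on a stand-in value set by the scanning software. The chondrocyte sum, 4.76 to 73.4 in G-Surgery, was 2.23 to 3.68 in FLT-Surgery, without overlap, and its part in the Fadd values was not tested.

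Casp8 ratios were -3.50, -3.12, -4.38 and -4.14 in G-Sham, -2.39, -2.82, -4.73 and -3.18 in FLT-Sham, -2.69, -4.68, -3.07 and -4.19 in G-Surgery, and -3.93, -4.37 and -5.43 in FLT-Surgery. All groups overlapped, and FLT-Sham replicates 4 and 6 were the arrays above background. FLT-Sham was at least 1.42-fold over FLT-Surgery and at least 1.02-fold over G-Sham, neither tested. The 2 Bcl2l11 probes, for the BH3-only activator BIM, were never well above background, with group means of the Cy5 signal from 35.5 to 56.6 for one and 26.2 to 34.3 for the other, and no order of groups can be read from them.

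**Figure D4:**
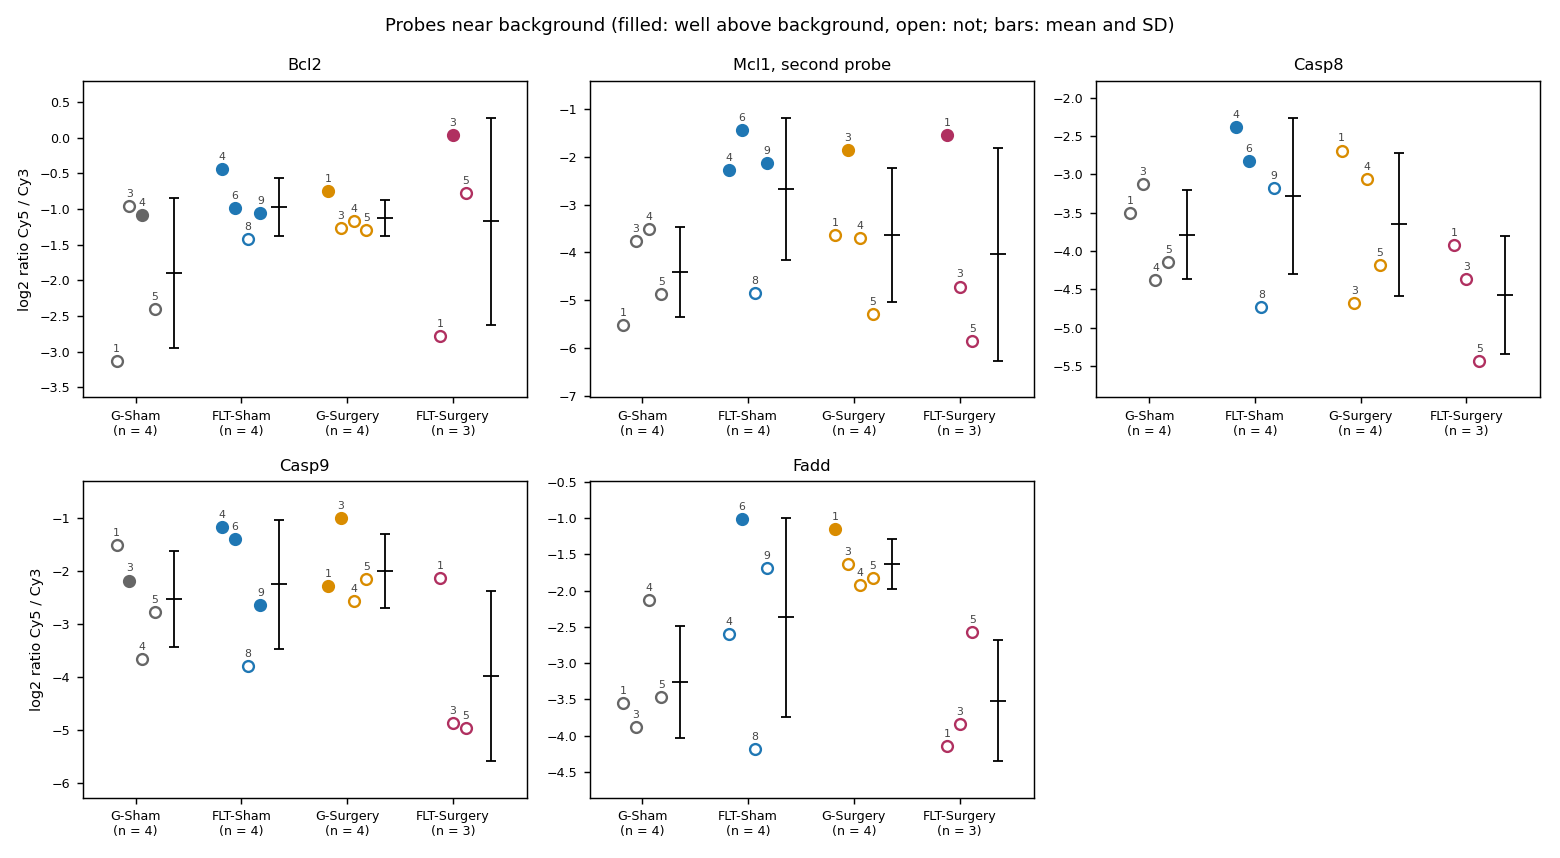
Log2 ratio of Cy5 to Cy3 (y axis) by group (x axis) for the 5 member probes above background on 2 to 6 arrays. Filled points are arrays well above background and open points are not, with replicate numbers and bars for mean and SD. The Fadd panel shows all 4 G-Surgery arrays above G-Sham and FLT-Surgery, with 1 of the 4 filled.

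Likeness of pattern was measured as the root mean square difference over 15 arrays between ratios centred on their mean, among 5085 named probes above background on all arrays. For Mcl1 the nearest genes were Mgat1 (0.20) and Nsmf (0.21), for Bcl2l1 Pomgnt1 (0.15) and Cmtr1 (0.17), for Bax Rbbp4 (0.24) and Kank2 (0.25), and for Bak1 Clta (0.09) and Prpsap1 (0.13). The median over all candidates was 0.55 to 0.62.

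Around these members, 55 further apoptosis genes in 6 lists were examined, covering BCL2 relatives, apoptosome and mitochondrial factors, other caspases, inhibitors of apoptosis, death receptors with their adaptors, and p53 with caspase substrates. In FLT-Sham against G-Sham 3 of 35 tested genes were higher past the cut-off (all probes 1.79%) and 0 lower (0.208%), with a median of 0.44 beside 0.24 for all probes. FLT-Surgery against G-Surgery had 0 of 31 higher (all probes 1.05%) and 0 lower (2.09%), with a median of -0.34 beside -0.20. G-Surgery against G-Sham had 2 of 31 higher (all probes 2.08%) and 1 lower (0.509%), with a median of 0.30 beside 0.14. FLT-Surgery against FLT-Sham had 0 of 35 higher (0.423%) and 1 lower (6.22%), with a median of -0.38 beside -0.28. The interaction had 4 of 36 lower (4.97%) and 0 higher (0.358%), with a median of -0.73 beside -0.37. None had an adjusted p of at most 0.05. Bcl2a1d, Xiap, Endog, Casp6 and Mdm4, past the cut-off in comparisons of groups, met the filter only through the group where they were higher. The counts are therefore a description. Arrays of the groups did not overlap for 4 genes higher and 1 lower in FLT-Sham against G-Sham (all probes 3.64% and 0.957%), and for 1 and 4 in FLT-Surgery against G-Surgery (6.02% and 7.54%). They did not overlap for 2 higher and 1 lower in G-Surgery against G-Sham (5.31% and 1.56%), and for 0 and 6 in FLT-Surgery against FLT-Sham (4.06% and 10.6%).

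Bcl2a1d, an anti-apoptotic relative of Mcl1 known from myeloid cells, had the largest fitted differences from G-Sham of the lists. By the bounds for FLT-Sham against G-Sham, Xiap (at least 2.87-fold) stood above Bcl2a1d (at least 2.54-fold), so their order is not settled. Near-identical gene copies may also be read by this probe, so the copy is uncertain. Its ratios were -3.45, -3.54, -3.34 and -1.95 in G-Sham and 0.67, 0.53, -1.06 and 0.40 in FLT-Sham. G-Surgery gave 1.67, 2.38, 1.40 and -1.70 and FLT-Surgery 2.56, -2.12 and -3.20. G-Sham was not well above background on any of its 4 arrays. FLT-Sham replicate 8 and G-Surgery replicate 5 were the dimmest of their groups, yet G-Sham lay below every FLT-Sham array and, with G-Sham replicate 5 at -1.95, just below every G-Surgery array, whereas FLT-Surgery spanned both extremes. FLT-Sham was at least 2.54-fold over G-Sham (fitted difference 3.21, SE 0.53, limma adjusted p = 0.277), and G-Surgery at least 4.42-fold (fitted difference 4.01, SE 0.84, limma adjusted p = 0.215). Both fitted values rest on G-Sham signals not well above background. Repeated background correction with loess reduced them to 0.62 and 0.83, short of the cut-off. The macrophage sum of FLT-Sham, 30.3 to 46.3, and its neutrophil sum, 473 to 808, overlapped those of G-Sham. In G-Surgery the macrophage sum, 47.1 to 62.4, lay wholly above that of G-Sham, 24.8 to 41.6. The chondrocyte sum did so too, at 4.76 to 73.4 in G-Surgery and 1.73 to 4.30 in G-Sham. Summed adipocyte markers were 27.9 to 103.6 in FLT-Sham and 0.975 to 43.9 in G-Sham. The part of these cells in either difference was not tested.

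The other genes past the cut-off in a comparison of groups lost it when certain single arrays were left out, with the probes tested held fixed, and under other scalings. Diablo, which encodes the mitochondrial antagonist of inhibitor proteins, was 1.08 higher in FLT-Sham than in G-Sham without overlap (SE 0.32, limma adjusted p = 0.484). Xiap, the inhibitor that DIABLO binds, was at least 2.87-fold higher there (limma adjusted p = 0.491), above background on 3 FLT-Sham arrays and no G-Sham array. Diablo stayed past the cut-off only without G-Sham replicate 3 (range 0.89 to 1.2), and Xiap only without FLT-Sham replicate 8 (range 1.65 to 2.46). Diablo was 0.59 after a second loess, 0.11 with repeated background correction and loess, 0.91 with Cy5 alone and 1.07 with slide as a block, short of the cut-off each time. Xiap was 0.03 with repeated correction and 2.12 with slide as a block, also short of it. Endog, a mitochondrial nuclease, was at least 2.08-fold lower in G-Surgery than in G-Sham (limma adjusted p = 0.319), and it missed the cut-off without G-Sham replicates 1, 3 or 5 or G-Surgery replicates 1 or 3 (range -1.5 to -1.10), after a second loess (-1.44), with repeated correction (-0.16) and with Cy5 alone (-1.09). Mdm4, a p53 inhibitor, was 2.0 higher in G-Surgery than in G-Sham (SE 0.54, limma adjusted p = 0.319), and missed it without G-Sham replicate 4 or any 1 G-Surgery array (range 1.46 to 2.38), with repeated correction (0.53) and with slide as a block (1.61). Casp6, an executioner caspase, was at least 1.69-fold lower in FLT-Surgery than in FLT-Sham (limma adjusted p = 0.146). It missed the cut-off without any 1 of the 7 arrays (range -1.30 to -1.09), and its difference was -0.12 after a second loess and turned to 0.69 under repeated correction with loess. The cell marker sums that separate FLT-Surgery from FLT-Sham, given with Casp9, apply here too, and their part was not tested.

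Without passing the cut-off, the extremes of the lists were Tnfrsf25, a death receptor, at a log2 difference of 2.07 in G-Surgery against G-Sham (limma adjusted p = 0.403), and Vdac1, a mitochondrial channel, at -0.63 (limma adjusted p = 0.621). In FLT-Surgery against G-Surgery they were Mdm4 at -2.58 and Fas, the death receptor upstream of FADD, at -2.14, with Dffa, an inhibitor of the caspase-activated nuclease, at 1.19 and Cflar, a decoy of caspase-8, at 0.94 (limma adjusted p = 0.280 for Mdm4 and Dffa, 0.302 for Fas and 0.581 for Cflar). Mdm4 and Dffa did not overlap between these groups. For FLT-Surgery against FLT-Sham the extremes were Fas at -2.83 and Xiap at -2.47, with Casp4 at 0.78 and Bok at 0.58 (limma adjusted p = 0.159, 0.170, 0.308 and 0.403). In FLT-Sham against G-Sham the lowest were Casp4 at -0.93 and Tradd, a TNF receptor adaptor, at -0.74 (limma adjusted p = 0.540 and 0.519). In the interaction Bcl2a1d (-5.06), Mdm4 (-3.73), Casp2 (-3.47) and Xiap (-3.33) passed, with limma adjusted p-values from 0.172 to 0.178. With single arrays left out, Mdm4 missed the cut-off without FLT-Surgery replicate 5 (-2.74), and the others without 5 or more arrays. None passed under repeated correction with loess, where Bcl2a1d was -0.82, Mdm4 -0.77, and Casp2 and Xiap 0.17 each. Their unadjusted limma p-values there were 0.072, 0.0061, 0.46 and 0.37, so Mdm4 missed the fold limit only. After a second loess Bcl2a1d (-3.76), Mdm4 (-2.48) and Xiap (-1.89) also missed it, as did Bcl2a1d with Cy5 alone (-3.87) and Mdm4 (-3.69) and Casp2 (-3.48) with slide as a block. FLT-Surgery replicates 3 and 5 were not well above background for any of the 4 genes while replicate 1 was.

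**Figure D5:**
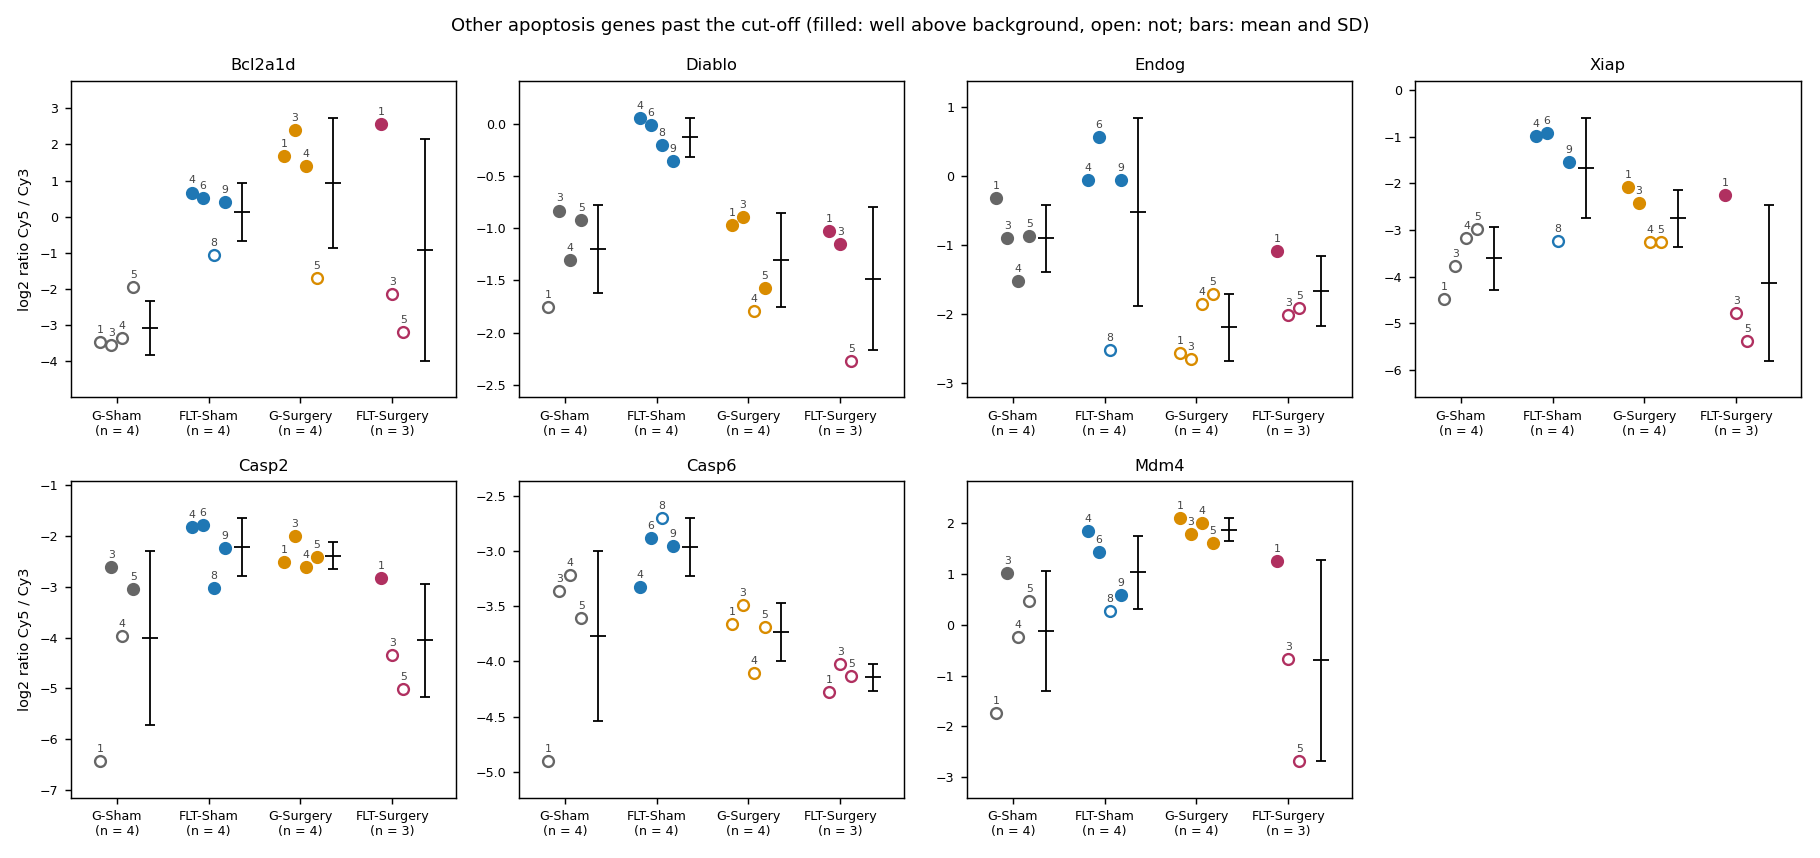
Log2 ratio of Cy5 to Cy3 (y axis) by group (x axis) for the 7 further apoptosis genes past the cut-off in at least 1 comparison. Filled points are well above background and open points are not, with bars for mean and SD. All 4 G-Sham points of Bcl2a1d are open, and FLT-Surgery replicate 1 is filled where replicates 3 and 5 are open in the Bcl2a1d, Endog, Xiap, Casp2 and Mdm4 panels.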

How the data were processed

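Gene expression was measured on 15 Agilent two-colour mouse arrays, 1 mouse each (4 G-Sham, 4 FLT-Sham, 4 G-Surgery, 3 FLT-Surgery), hybridised on 3 slides. The deposited scanner files, made per their headers with Feature Extraction 12.0.3.1, give spot intensity in both channels and a log10 ratio of Cy5 to Cy3 after the authors' linear and LOWESS dye normalization. A deposited table of the whole series repeats those log10 ratios. Deposited flags mark spots well above background, significantly over background or saturated. Because the non-linear dye term already followed intensity on all 15 arrays (Spearman correlation 0.895 to 0.992), ratios were converted to log2 with no further loess. Ratios of spots with no usable signal were set to exactly 0 by the software. These made up at most 0.668% of the tested probes on any array.

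Control spots were left out and 28026 of 55681 probes were named through RefSeq accessions (GRCm38.p6). The test was limma 3.58.1 (R 4.3.3), fitted to the compared arrays alone (all 15 for the interaction), for probes whose Cy5 signal was well above background on at least 3 of them. The cut-off was a fold change of at least 2 with an unadjusted p of at most 0.01. Members were also compared with two-sided exact permutation tests (23 in all, unadjusted, smallest possible p 0.0286 in each comparison). Where a group was not well above background on any array, a bound was given on Cy5 signals. These were taken after the mean log2 signal of both channels was quantile-normalized across arrays, with the ratios kept. The dim group was set on each array to the higher of its own signal and the lowest signal well above background. A gene with several probes was led by the one above background on the most arrays, and every member probe is given.

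The members, the further apoptosis lists and the marker lists were chosen with earlier results of these data known. Named further genes are those past the cut-off and the 2 highest and 2 lowest per comparison. The number of arrays limits the precision. Scripts were tested on simulated data. Alternatives covered a second loess, median centring, normexp background correction (offset 50, on median spot signals) with loess, Cy5 alone, the series table, other filters and thresholds, slide or replicate number as a block, and leaving out each array.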

Additional observations from a re-analysis of the deposited data

How the results depend on the processing

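No member gene passed the cut-off in the 5 comparisons, and this count of 0 held under a second loess, median centring, normexp with loess, Cy5 alone, the series table, slide as a block and the stricter filter. It became 1 in G-Surgery against G-Sham and 1 in FLT-Surgery against G-Surgery with no filter on dim probes, Fadd both times, which is by construction since the filter had removed it. It became 1 in G-Surgery against G-Sham and 1 in the interaction at an unadjusted p of at most 0.05, Mcl1 both times. With single arrays left out it was 0 to 1 in the interaction (Casp9 without FLT-Surgery replicate 1) and 0 elsewhere. Of 574 values of single genes under other settings, 48 had the opposite sign and 3 gained a call. A call could not be lost, since no member passed in the main fit.

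Over all probes the number past the cut-off moved more. In the order FLT-Sham against G-Sham, FLT-Surgery against G-Surgery, G-Surgery against G-Sham, FLT-Surgery against FLT-Sham and interaction it was 394, 519, 458, 1272 and 1160. It was 242, 1199, 410, 1188 and 900.0 after a second loess, 33, 211, 179, 296 and 322 with normexp and loess, and 227, 1290.0, 210.0, 550.0 and 804 with slide as a block. The causes were not tested.

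The labels do not tie equal replicate numbers across groups, so the samples were not treated as paired. Deviations of same-numbered arrays correlated at -0.36 to 0.35, too few pairs to decide whether they went together. With the replicate number as a block, 0 members passed the cut-off in the 3 comparisons that could be fitted, and the count over all probes was 215 in FLT-Surgery against G-Surgery, 389 in G-Surgery against G-Sham and 399 in the interaction.

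Signal over background limits the dim members. Casp8, Fadd and Bcl2l11 could not be tested with the filter in any comparison, and a bound from 1 or 2 arrays above background rests on those arrays.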
